A study of Mus musculus with 4 samples.

Results

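The copy number profile of MLg, an established mouse lung fibroblast line, was read from the positions of pair ends in 4 H3K4me3 HiChIP-seq libraries. The regions described are the autosomal bins of 500 kb of mm10 in which at least 90% of the sequence is known, and 4754 of 4917 autosomal bins met this rule. Pair ends within 5 kb of the transcription start site (TSS) of a coding gene were left out, because the precipitated mark is concentrated there. The rule used sequence only. Steps, segments and focal bins were then found from the levels of the bins themselves, so that their levels are given as descriptions without a test.

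HiChIP-seq joins restriction fragments that lie close together in the nucleus, precipitates those that carry a histone mark, and reads both ends of each joined molecule. MLg cells were transfected 24 h before harvest, with 60 nM of antagomiR in the shared protocol, and the libraries with TGFB1 came from cells that received 5 ng/ml of it 4 h before harvest. The Control library had neither TGFB1 nor a named antagomiR, the TGFB1 library had TGFB1 and no named antagomiR, the TGFB1+miR-9-LOF library had TGFB1 and an antagomiR against miR-9-5p, and the miR-9-LOF library had this antagomiR without TGFB1 (LOF, loss of function). These groups follow the labels, whereas the study's methods describe a negative control antagomiR for cells without the one against miR-9. Each condition had 1 library, so conditions were not tested against each other, and the 4 libraries were taken as 4 cultures of 1 line. SD values below are over these libraries (n = 4), and the labels do not say whether the cultures were separate lineages. Where 4 values stand side by side, the first is Control, the second TGFB1, the third the library with both TGFB1 and miR-9-LOF, and the last miR-9-LOF alone.

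In sequencing data, a chromosome segment present in more copies yields more reads per base than its surroundings, and a segment missing from every cell yields almost none. Cell lines that have escaped senescence commonly carry extra and missing chromosome segments, and in mouse fibroblasts loss of the locus that holds Cdkn2a and Cdkn2b is a known route to unlimited growth. In contact data a missing segment also brings its flanks together, and a segment that has moved makes contacts with its new neighbours, so that contacts give a second reading of the same change.

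Chromosome 4 held a stretch almost without ends, and its edges could be placed to within 5 kb. MboI, the enzyme used for the libraries, cuts at GATC, and pair ends lie beside these sites. The sites that bound the edges are shown because they bracket the places where the count of ends or of contacts changed. Only sites with unique sequence on both sides were considered. A site with ends had them within 250 bases in every library, and a site without ends had them in no library. Sites without ends were sought from the edges inward. First and last refer to sites that met these rules, and sites between them may have been passed over. Each is 24 bases of the plus strand of GRCm38, 5′ to 3′, with GATC in capitals.
last site with ends before the empty stretch, chr4:89212883-89212906: gctctactggGATCcaaataaccc
first site without ends, chr4:89216789-89216812: accccaccgaGATCacgtgggcca
last site without ends, chr4:93067219-93067242: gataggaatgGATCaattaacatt
first site with ends after the empty stretch, chr4:93071458-93071481: gtcttaagaaGATCccgtaggagt
last site before the distant edge of contacts, chr4:43859618-43859641: tgtactcagaGATCcctgcctctg
first site after that edge, chr4:43863116-43863139: gggctcttctGATCttggttttgt
None of the 6 sites lay in a coding gene. Within 250 bases the 4 libraries together had 22 ends at the last site before the empty stretch, 0 at both sites without ends and 11 at the first site after it. At the distant edge the sites had 12 and 26 ends, and both were chosen as sites with ends. Because all 6 sites were chosen by whether they had ends, these numbers describe the sites and do not test the edges.

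The libraries held 10864558 to 15568047 valid pairs, and 16255829 to 23284628 ends of mapping quality 30 or more entered the bins. The median bin held 3230.5 to 4724.5 ends per library, a counting error of 0.021 to 0.025 on the log2 scale, whereas neighbouring bins differed by an SD of 0.15 in miR-9-LOF to 0.22 in Control. The spread between bins therefore came mainly from other sources than counting. The 8 fibroblast marker genes had promoters with a median percentile of 64.9 to 69.8 among all coding promoters against 39.9 to 47.7 for epithelial, 24.4 to 43.02 for endothelial and 23.7 to 28.5 for leukocyte markers. Col1a1, the main chain of type I collagen, lay at percentiles of 90.5 to 92.6 and Vim, the intermediate filament of mesenchymal cells, at 91.7 to 95.2, whereas Col3a1 lay at 28.2 to 38.9, Lum at 34.7 to 45.6 and Thy1 at 38.5 to 56.1. These 3 fibroblast markers ranked no higher than Epcam of epithelium (47.1 to 57.5), Sftpc of alveolar epithelium (49.7 to 55.2) and Pecam1 of endothelium (49.7 to 63.8) in most libraries.

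The level of a bin is the log2 of its ends per known base after correction for GC content and MboI sites, with the median bin at 0. Absolute copy number is not known from such levels. For scale, 1 copy more than 2 gives a log2 difference of 0.58 and 1 copy more than 3 gives 0.42, while 1 copy fewer than 3 gives -0.58 and 1 fewer than 4 gives -0.42.

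Steps present in all 4 libraries were found on 13 of the 19 autosomes. There were 49 steps of at least 0.3 with the same direction in every library, 25 up and 24 down, and they divided the autosomes into 68 segments. Of these steps 27 bordered a segment in which fewer than 70% of the MboI sites have a 50-base sequence that occurs at 1 place in the genome. In such segments reads that cannot be placed and missing sequence cannot be told apart. The 223 bins under this limit were left out in a second segmentation of the other 4531 bins, a choice made after seeing the data. It gave 27 steps on 9 chromosomes, 11 up and 16 down, and 46 segments, and its values are used below unless stated.

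The median size of these 27 steps was 0.59, and the median SD of a step over the libraries was 0.064. When steps were found in 3 libraries and measured in the library left out, every step kept its direction, 28 of 28, 30 of 30, 26 of 26 and 20 of 20. A single step was smaller than 0.3 when measured in TGFB1 and when measured in miR-9-LOF. The library left out shared its cell line, precipitated mark and sequence with the others. The kept direction therefore describes agreement between libraries, and it cannot separate copy number from a bias that they share. The levels of the bins correlated between libraries with Pearson's r of 0.964 to 0.991 over 4531 bins, which share their sequence and its mappability, so that this r is a description only.

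Bins of gained segments, at least 0.25 above the median bin in every library, made up 26.3% of these bins (1192 bins, 596 Mb), and bins of lost segments, at least 0.25 below it, made up 24.0% (1086 bins, 543 Mb). With all 4754 bins the shares were 27.2% and 25.1%.

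**Figure D1:**
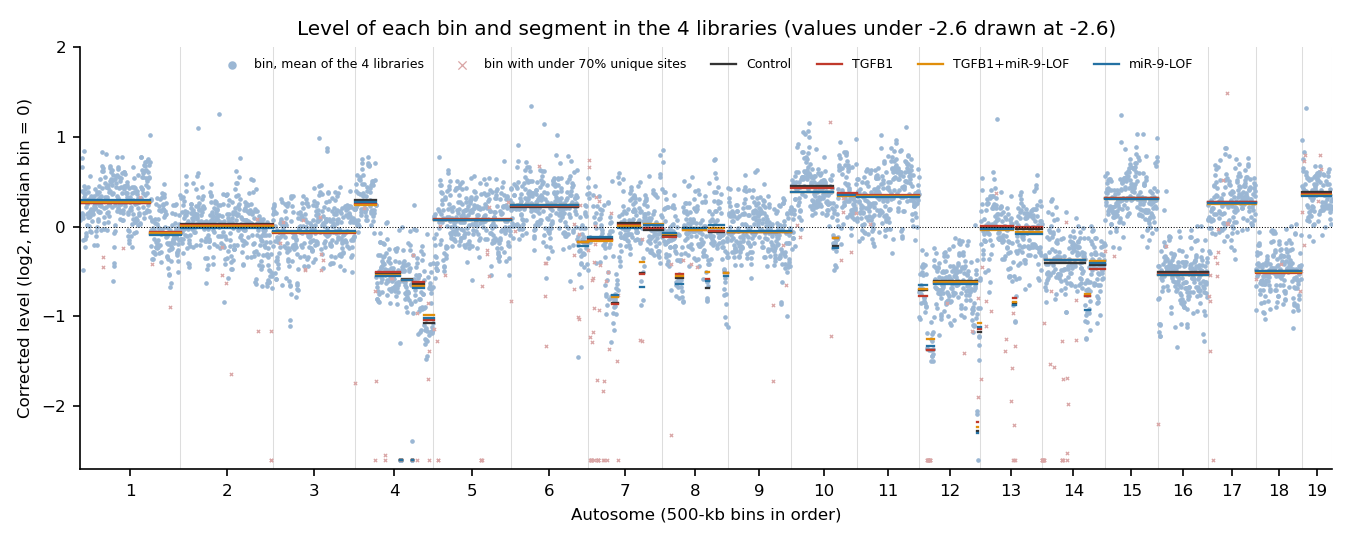
Corrected level of every 500-kb bin along the 19 autosomes (log2, median bin at 0). Points are means of the 4 libraries, crosses are bins with fewer than 70% unique sites, and horizontal lines are the segment levels of each library, which lie almost on top of each other. Chromosomes 10, 11, 15, 17 and 19 sit above 0, chromosomes 12, 14, 16 and 18 and most of chromosome 4 sit below it, and values under -2.6 are drawn at -2.6.

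Whole chromosomes fell into a high, a middle and a low group, with 2 chromosomes between the high and the middle group. The highest were chromosome 10 at 0.37 ± 0.021 (SD, n = 4), chromosome 19 at 0.36 ± 0.015, chromosome 11 at 0.34 ± 0.0084, chromosome 15 at 0.31 ± 0.0098 and chromosome 17 at 0.27 ± 0.0097. The middle level held chromosomes 2, 3, 5, 7, 8, 9 and 13, from -0.11 ± 0.019 for chromosome 8 to 0.08 ± 0.0057 for chromosome 5. Chromosome 1 at 0.19 ± 0.015 and chromosome 6 at 0.20 ± 0.0093 lay between these groups. The lowest were chromosome 14 at -0.42 ± 0.023, chromosome 4 at -0.49 ± 0.027, chromosome 18 at -0.50 ± 0.011, chromosome 16 at -0.52 ± 0.014 and chromosome 12 at -0.67 ± 0.013. Chromosomes 4 and 18, 18 and 16, 10 and 19, and 19 and 11 differed by less than their summed SDs. Chromosome 4 lay above chromosome 18 except in miR-9-LOF alone (-0.52 and -0.49), so their order could not be told. The other neighbours named kept their order in every library, by small differences.

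Chromosome 16 illustrates how close the libraries were, with levels of -0.51, -0.52, -0.54 and -0.53. Chromosome 11 had 0.34, 0.35, 0.34 and 0.33. The groups of high and low chromosomes were formed from these same levels, so that their separation in every library is a description only. Within 10 chromosomes (2, 3, 5, 9, 11, 15, 16, 17, 18 and 19) there was no step. With all bins, chromosomes 16 and 17 each had a step up at 8.5 Mb in every library, from -1.08 ± 0.11 to -0.52 ± 0.017 and from -0.25 ± 0.077 to 0.29 ± 0.0090, with 84.4% and 77.9% unique sites on the left, so that their uniformity depends on the bins left out. The same holds for chromosomes 2 and 5, whose steps with all bins bordered segments with 11.1% unique sites and with 29.2% and 5.95%. Chromosome 5 from 3 to 10.5 Mb then lay at -0.36 ± 0.052, with 78.9% unique sites.

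The remaining 9 chromosomes were divided. Chromosome 1 stepped down at 136.5 Mb, from 0.27 ± 0.016 to -0.08 ± 0.015, and chromosome 6 stepped down at 129.5 Mb, from 0.23 ± 0.010 to -0.18 ± 0.022. The right parts spanned 58.5 and 20 Mb. Without correction for GC content and MboI sites, the parts of chromosome 1 lay at 0.12 and 0.13 and those of chromosome 6 at 0.22 and 0.01. The step of chromosome 1 and the gained call of its left part therefore depend on the correction. With pairs between chromosomes only, the right part of chromosome 6 lay at 0.0060, so its sign depends on the kind of pairs. The left part of chromosome 6 did not reach 0.25 in any library and was not counted as gained.

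Chromosome 10 was high along its length except between 84.5 and 94.5 Mb, where the levels were -0.21, -0.13, -0.12 and -0.24, against 0.41 ± 0.032 to its left and 0.36 ± 0.016 to its right. Its steps of -0.59 and 0.53 were close to the size of 1 copy from 2 or 3. Without correction the segment lay at 0.07 and its sides at 0.39 and 0.33. It held 70 coding genes, and its density of 7 coding TSS per Mb was close to the 7.59 and 7.79 of its sides.

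Chromosomes 7, 8 and 13, otherwise near the median bin when bins with few unique sites were left out, also held low segments. On chromosome 8 they spanned 29.5 to 43.5 Mb (-0.57 ± 0.048, 56 coding genes) and 87.5 to 93 Mb (-0.60 ± 0.076, 26 genes), and the last 8 Mb from 121 Mb lay at -0.53 ± 0.016 (93 genes). Without correction these 3 levels were -0.70, -0.0094 and 0.18, so that the last 2 depend on the correction. On chromosome 7 they spanned 49.5 to 61 Mb (-0.81 ± 0.050, 28 genes) and 102.5 to 109.5 Mb (-0.53 ± 0.11, 256 genes). Without correction they lay at -1.24 and -1.01, and with 1-Mb bins that from 102.5 Mb lay at -0.27. The part of chromosome 7 from 3 to 49.5 Mb lay at -0.14 ± 0.018, but at -0.248 over all bins. Over all bins it lay at -0.57 with 20 kb from a coding TSS left out and at -0.50 without correction. Whether this part is near the median bin or low thus depends on the processing. On chromosome 13 the segment of 64.5 to 70.5 Mb lay at -0.84 ± 0.033 (59 genes).

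Sequence composition moved with several of these segments. The segment of chromosome 7 from 49.5 Mb had 2.40 coding TSS per Mb against 25.9 to its left, and that from 102.5 Mb, which holds a large cluster of olfactory receptor genes, had 39.1 per Mb against 7.04. On chromosome 14 a segment of 86 to 96.5 Mb lay at -0.81 ± 0.084 between sides at -0.38 and -0.42, and it had 0.476 coding TSS per Mb and a GC content of 36.8%. With coding TSS and repeat-masked share added to the correction, the levels over all bins were -0.76 for the segment of chromosome 7 from 49.5 Mb, -0.58 for that from 102.5 Mb and -0.84 for that of chromosome 14, against -0.81, -0.40 and -0.83 over the same bins with GC content and MboI sites alone.

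Chromosome 12 was low throughout. Its levels were -0.71 ± 0.048 from 3 to 17 Mb, -1.33 ± 0.057 from 17 to 31 Mb, -0.62 ± 0.012 from 31 to 113.5 Mb and -1.13 ± 0.044 from 116 to 120 Mb. In the segment from 17 Mb the 4 libraries gave -1.38, -1.38, -1.26 and -1.33, a mean ratio of 0.396 to the median bin. Only 16 of the 28 bins in its span passed the limit for unique sites, because the span holds 2 repeated runs described below.

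Chromosome 4 carried the largest number of segments, 7 in all. From its left end to 44 Mb it lay at 0.26 ± 0.026, from 44 to 89.5 Mb at -0.53 ± 0.022, from 93 to 112 Mb at -0.59 ± 0.0094, from 114 to 136.5 Mb at -0.65 ± 0.030 and from 136.5 Mb to its end at -1.03 ± 0.039. Levels to the left of 44 Mb were 0.30, 0.25, 0.24 and 0.27, and the step down there was -0.79 ± 0.030. The distal segment had 15.3 coding TSS per Mb and a GC content of 48.9%, and without correction its level was -0.18 and that of the segment of 114 to 136.5 Mb was -0.0036, so the size of both depends on the correction, and the part left of 44 Mb turned from above to below 0 (-0.039).

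Between 89.5 and 93 Mb almost no ends were found. At 5-kb resolution both edges fell into the same class in all 4 libraries and bounded chr4:89215001-93070000, a stretch of 3855 kb. The 4 libraries had 204, 159, 223 and 140 ends in it, or 0.0539, 0.0420, 0.0589 and 0.0370 ends per kb farther than 5 kb from a coding TSS. The Mb to its left had 8.49, 6.16, 7.51 and 8.11 ends per kb, and the Mb to its right had 4.95, 3.71, 5.08 and 5.28.

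The stretch thus held 0.810% of the mean density of its neighbours, 104- to 176-fold less, and no library came near the density of either side. Sites with unique sequence on both of their sides made up 73.9% of its 10028 sites, against 76.1% in the left neighbour and 75.5% in the right neighbour. Of the few ends in its bins 26.2% had a mapping quality under 30, against 2.54% in the bin on its left, 7.84% in the bin on its right and a median of 4.94% over all bins. The remaining ends were spread out, with at most 9.69% of a library's ends in the densest 10 kb.

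**Figure D2:**
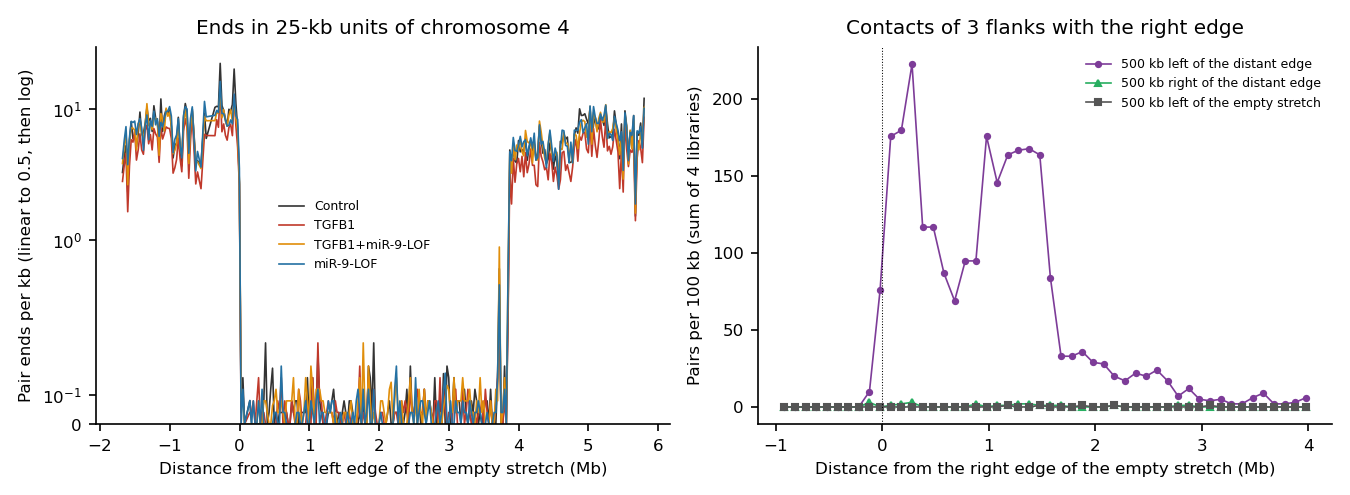
Left, pair ends per kb in 25-kb units around the empty stretch of chromosome 4 (axis linear up to 0.5, then logarithmic), 1 line per library. Right, pairs per 100 kb, summed over the 4 libraries, that join the right edge of the stretch to 500 kb on its left side (squares) and to 500 kb on the left (circles) and on the right (triangles) of the distant edge. Ends fall at the same places in all libraries, and the right edge has contacts with the left side of the distant edge and almost none with its own left side.

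Cdkn2a, which encodes inhibitors of cyclin D kinases and of Mdm2, and its neighbour Cdkn2b, another inhibitor of cyclin D kinases, lay inside the stretch. Within 2 kb of its TSS Cdkn2a had 2 ends in Control and 0 in each other library, and Cdkn2b had 1 end in TGFB1+miR-9-LOF and 0 in each other library. Dmrta1, a transcription factor gene, and Zfp352, a zinc finger gene, had 0 ends in all 4 libraries. Elavl2, which encodes a neuronal RNA-binding protein, had 0, 1, 1 and 0 ends, and Izumo3, a sperm protein gene, had 1, 0, 0 and 0. These genes and the predicted gene Gm12666 were the coding genes of the stretch.

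Genes on both sides kept their ends. Mtap, which encodes a methionine salvage enzyme and lies next to Cdkn2a, had 201, 96, 92 and 114 ends within 2 kb of its TSS. Tusc1, the nearest coding gene on the right, had 34, 26, 26 and 23 ends. Cdkn2c, another inhibitor of cyclin D kinases further along the chromosome, had 484, 212, 169 and 209, a rank at percentile 82.9 among promoters. The edge therefore passed between Mtap and Cdkn2a, and the cluster of type I interferon genes around Klhl9, to the left of Mtap, also lay outside.

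Contacts across the stretch were counted next, with the number expected from the distance along the chromosome and the coverage of both windows. If the 500 kb on either side of the stretch were neighbours as in the reference, 16.95 pairs would be expected between them, and 0 were found in the 4 libraries together. The exact 95% Poisson interval of the ratio, which covers counting error only, reached 0.218. With 1 Mb on each side 0 pairs were found where 51.9 were expected. With 250 kb on each side 0 were found where 4.01 were expected. At 8588 places with the same gap and 250-kb flanks the median ratio was 1.11, and 35 had a ratio as low.

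The right side of the stretch had its contacts elsewhere. The 500 kb right of the stretch and the 500 kb left of 43.85 Mb shared 858 pairs where 12.9 were expected, a ratio of 66.5 (62.1 to 71.1). The 4 libraries had ratios of 58.3, 70.9, 66.3 and 72.3. The 500 kb right of 43.875 Mb shared 6 pairs with the same window where 5.30 were expected, a ratio of 1.13 (0.415 to 2.46). Contacts with the right side thus ended between these windows, and at 10-kb resolution the edge was at 43860000 in all 4 libraries, to the left of Reck, which encodes a membrane inhibitor of matrix metalloproteinases.

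Pairs of 500-kb windows on the same chromosome were ranked by their ratio, with nearby windows and windows that shared few pairs left out. Among the 139757 window pairs ranked, that at 43.5 and 93 Mb of chromosome 4 had rank 2. It had 751 pairs and a ratio of 83.6, against a median ratio of 1.36. Rank 1 was a window pair at 18 and 24 Mb of chromosome 12 with 42 pairs, inside the repeated runs of that chromosome. The edge of contacts at 43.86 Mb was searched for beside the step in level at 44 Mb. With all bins this step was placed at 41.5 Mb, so that its position depends on leaving out bins with few unique sites. The window pair was ranked among all window pairs that met the limits on distance and shared pairs.

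The 3 pieces of chromosome 4 bounded by these edges differed in their contacts. The piece of 44 to 89.2 Mb and the piece of 93.075 to 112 Mb are neighbours in the reference apart from the empty stretch, and shared 1369 pairs where 19103 were expected, a ratio of 0.0717 (0.0679 to 0.0756). This is 1.21 times the number expected if they lay on different chromosomes. The piece of 3.5 to 43.85 Mb and the piece of 93.075 to 112 Mb shared 36860 pairs where 14127 were expected, a ratio of 2.61 and 22.3 times the level of different chromosomes. The first piece and the middle piece had a ratio of 1.16 (1.15 to 1.16).

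In each library the order was the same, with 0.0759, 0.0681, 0.0757 and 0.0665 for the middle and the right piece, and 2.69, 2.70, 2.55 and 2.55 for the left and the right piece. Contacts of the middle with the right piece were thus scarce in every library, while the left piece had contacts with both. Directly across 43.86 Mb, 500 kb on each side, the ratio was 0.434 (0.410 to 0.459). Between 2 Mb on each side of the step at 136.5 Mb it was 1.08.

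**Figure D3:**
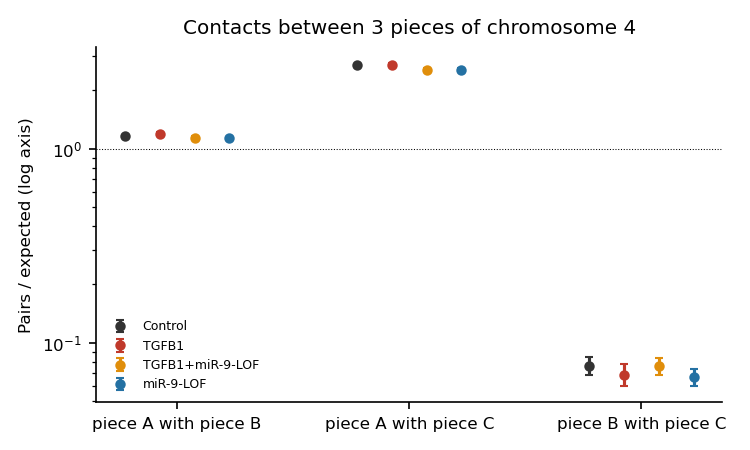
Pairs divided by expected pairs (log axis) between 3 pieces of chromosome 4, with piece A from 3.5 to 43.85 Mb, piece B from 44 to 89.2 Mb and piece C from 93.075 to 112 Mb. Points are libraries, bars are exact 95% Poisson intervals (smaller than the points for A with B and A with C), and the dotted line marks the expected number. B and C lie at 0.0665 to 0.0759 in all 4 libraries, whereas A and C lie at 2.55 to 2.70.

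A second interior stretch of chromosome 4 lay low between 112 and 114 Mb, over Skint genes. The family encodes immunoglobulin-like membrane proteins, and Skint1 is known for its role in the selection of skin T cells. Inside its edges, chr4:112030001-114295000, there were 1070, 818, 1208 and 1063 ends, or 0.490, 0.374, 0.553 and 0.487 ends per kb. This was 7.80% of the density of the neighbours (ratio 0.0780 ± 0.0044), and in every library it was higher than the density of the stretch with Cdkn2a. Of its sites 67.0% were unique, against 82.4% on its left and 85.9% on its right.

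The right edge of the Skint stretch lay between 114295000 and 114300000, and the left edge between 111915000 and 112030000. Skint1, Skint2, Skint3, Skint4, Skint5, Skint6, Skint9 and Skint10 overlapped its bins, 8 of 11 family members. Skint3 had 0 ends near its TSS in every library and Skint6 had 4, 1, 3 and 0, whereas Skint8, at the left edge, had 14, 18, 18 and 28, and Spata6, outside, had 270, 123, 85 and 90. Unlike those of the stretch with Cdkn2a, flanks of its bins shared more pairs than expected. The ratio was 17.5 over 250 kb on each side (13.8 to 21.8) and 8.50 over 500 kb (7.38 to 9.73). Over 250 kb only 1 of 8756 places with the same gap had a ratio as high. These flanks were the nearest units with enough ends beside the bins of 112 to 114 Mb. Those on the right came from 114000001 to 114425000 over 250 kb, partly inside the right edge of the stretch. The ratios therefore do not describe flanks that lie outside both edges.

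Of all 4754 bins 82 were focal low bins, at least 1 below the median of the surrounding 10 bins in every library (1.72%). They formed 43 runs, of which 21 were single bins and the longest had 9 bins. In 71 of the 82 bins fewer than 70% of the sites were unique, against 223 of all bins, and the median share of unique sites was 27.3% in focal low bins against 88.5% in all bins. Most focal low bins therefore lay where reads could not be placed, and this could not be told apart from missing sequence.

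**Figure D4:**
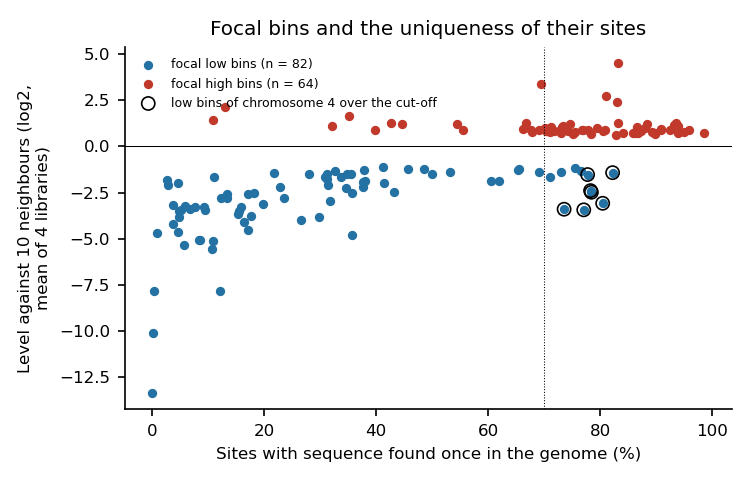
Level of each focal bin against its 10 surrounding bins (log2, mean of the 4 libraries) by the share of its MboI sites with sequence found at 1 place in the genome. The dotted line marks 70%, and circles mark low bins of chromosome 4 above it. Of the 82 low bins 71 lie left of the line, and of the 64 high bins 49 lie right of it.

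The low runs overlapped 556 of 20807 coding genes (2.67%), and 5 of the 43 runs held none. Among families with members in them were 73 of 329 vomeronasal receptor genes (Vmn, 22.2%) in 4 runs, 18 of 34 secretoglobin genes (Scgb), 14 of 22 defensin genes (Defa) and 11 of 22 major urinary protein genes (Mup) in 2 runs. Of the olfactory receptor genes (Olfr) 23 of 1128 (2.04%) lay in 1 run, a share near that of all coding genes. Predicted genes with the stem Gm made up 258, of 1228 in all (21.0%), in 24 runs. The single low bin of chromosome 5 at 3 Mb held Cdk6, a cyclin D kinase gene, with 65.5% unique sites and a level of -1.21 ± 0.055 against the chromosome. Longest was the run of 3 to 7.5 Mb on chromosome 14, with 96 coding genes, 93 of them with the stem Gm, 8.29% unique sites and 334 to 998 ends per library.

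Only 10 focal low bins were found when bins with few unique sites were left out. They were 3 bins of the stretch with Cdkn2a, 4 bins of the Skint stretch, 1 bin of chromosome 6 at 130 Mb and 2 bins of chromosome 12 at 113.5 and 114.5 Mb. The bin of chromosome 6 held Klra genes, receptors of natural killer cells that are known to differ in number between mouse strains, and lay 1.33 ± 0.056 below its neighbours, with 8 of 11 Klra genes in its run. The bins of chromosome 12 held Adam6a and the region of the immunoglobulin heavy chain locus, and lay 1.17 ± 0.063 and 1.64 ± 0.026 below theirs.

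Contacts between 250-kb flanks could be counted for 37 of the low runs. The median ratio of pairs to expected pairs was 3.81, with a range of 0 to 25.2, and with 500-kb flanks it was 2.36, with a range of 0 to 15.4. In 27 runs the flanks shared at least 2 times the expected number, and in 3 no more than 0.5 times. Flanks were the nearest units with enough ends, so some were spread over more than 250 kb. Some neighbouring runs shared a flank, as those of chromosome 2 at 175 and 176.5 Mb did on the right. The runs are therefore not separate observations. The ratio was highest for the run of chromosome 12 at 18 to 21 Mb (25.2), and it was 6.49 for the Klra run, which was not set beside other places, and 3.18 for the run at the heavy chain locus, where 1152 of 8756 places with the same gap were as high. At all places with gaps of 2000 or 3850 kb the median lay no higher than 1.11. The lowest ratio, 0, was that of the stretch with Cdkn2a.

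Flanks of the longer low segments were compared with the same measure. The ratio was 4.65 (3.61 to 5.90) for the segment of chromosome 14 at 86 to 96.5 Mb, where 0.849% of places with the same gap were as high, and 2.99 (2.60 to 3.41) for that of chromosome 7 at 49.5 to 61 Mb, where 5.70% were. It was 2.15 for chromosome 12 at 17 to 31 Mb, 1.56 for chromosome 7 at 102.5 to 109.5 Mb, 1.51 and 1.39 for both interior segments of chromosome 8, and 0.853 for chromosome 10 at 84.5 to 94.5 Mb. Each of these ratios except that of chromosome 14 lay within the range that held the middle 90% of places with its own gap, 0.318 to 3.07 for that of chromosome 10.

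Focal high bins, at least 0.58 above the surrounding 10 bins in every library, numbered 64 (1.35%) in 61 runs, and 19 with the bins of few unique sites left out. Some were high only because their neighbours were low, as were the bins at 89 and 93 Mb of chromosome 4 on either side of the empty stretch, with levels of -1.29 and -0.50. A bin of chromosome 2 at 77.5 Mb, with 88.3% unique sites, lay 1.23 ± 0.087 above its neighbours and at a level of 1.25.

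At 25-kb and 5-kb resolution this bin held a gain over Cwc22, which encodes a splicing factor. Cwc22 belongs to the R2d repeat unit, which is known to vary in copy number between mouse stocks. The 4 libraries had 66.7, 48.0, 65.9 and 57.6 ends per kb in the unit. The 200 kb on its left had 7.89, 6.14, 9.39 and 9.63 ends per kb and the 200 kb on its right 5.49, 4.41, 6.18 and 7.22.

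The unit thus had 8.63 ± 1.33 times the density of its neighbours, with ratios of 10.02, 9.15, 8.51 and 6.87, and no library overlapped with its own neighbours. Its left edge was at 77870000 in all 4 libraries and its right edge between 78010000 and 78025000. Of its 411 MboI sites 60.8% had unique sequence on both of their sides. In the 500-kb bin 22.7% of the ends had a mapping quality under 30, so the density of well placed ends is a lower reading of what was sequenced. The promoter of Cwc22 had 2905, 1500, 1260 and 1291 ends within 2 kb of its TSS, the highest sum of any coding promoter.

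**Figure D5:**
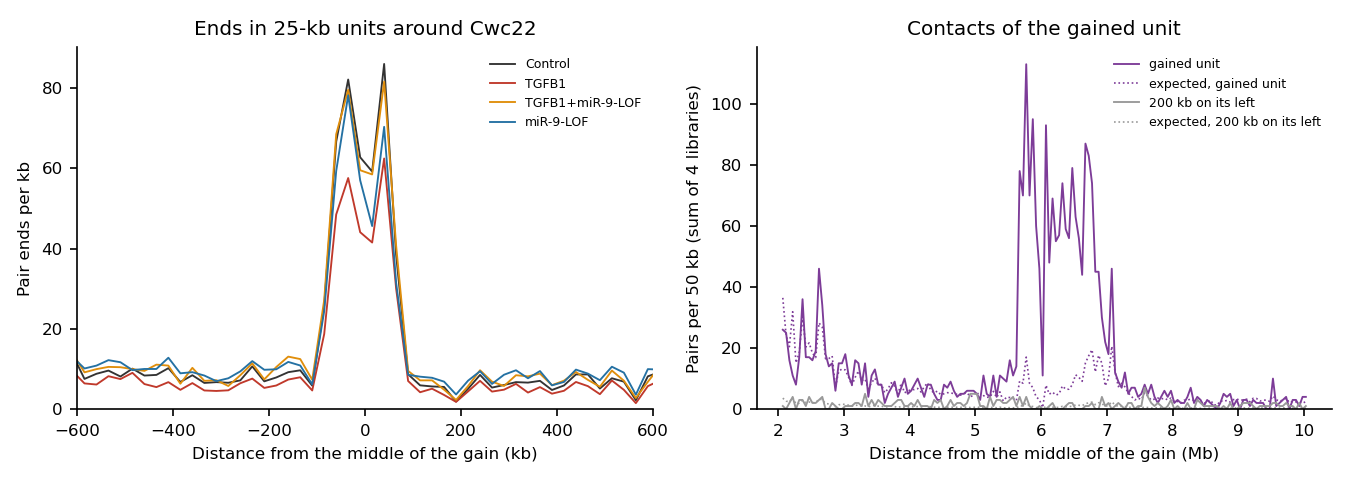
Left, pair ends per kb in 25-kb units around the middle of the gained unit on chromosome 2, 1 line per library. Right, pairs per 50 kb, summed over the 4 libraries, between the gained unit (purple) or the 200 kb on its left (grey) and places up to 10 Mb to the right, with the expected number dotted. The unit stands above both sides in every library, and its contacts rise well above the expected number over a block to the right that begins between 83600000 and 83640000, while those of its left neighbour do not.

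The gained unit had few contacts with its own sides and many with a region further along the chromosome. With the 500 kb on its left, 434 pairs were found where 3855 were expected from its raised coverage, a ratio of 0.113 (0.102 to 0.124), and with the 500 kb on its right the ratio was 0.101 (0.0899 to 0.114). With 83.6 to 84.1 Mb it shared 684 pairs where 70.5 were expected, a ratio of 9.71 (8.99 to 10.5), and the 4 libraries had ratios of 8.92, 11.3, 8.97 and 10.1. The 200 kb left and right of the unit had ratios of 1.44 (0.742 to 2.51) and 1.61 (0.771 to 2.96) with the same place.

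These contacts began between 83600000 and 83640000 in the 4 libraries. The ratio was 2.15 for 83 to 83.575 Mb, 6.05 (5.67 to 6.45) for 84.1 to 84.85 Mb and 1.27 (1.00 to 1.59) for 85.05 to 85.55 Mb. Zdhhc5, a palmitoyltransferase gene examined in the study, lies at 84687970 to 84715180, inside the window with the ratio of 6.05, and Tnks1bp1 lies at 85048022 to 85073048, mostly in the window with the ratio of 1.27. The level of the bin of Zdhhc5 was 0.25 and that of Tnks1bp1 -0.06, both in the segment of chromosome 2 that had no step (0.01 ± 0.021).

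Genes of the gained and lost segments were counted from lists of known function. Of 20599 coding genes placed in a segment 28.6% lay in gained and 20.5% in lost segments. Genes that share a segment share its level, so a list is described by its counts and not tested. Among 27 brakes of growth 9 lay in gained, 9 in lost and 9 in other segments, a share of 33.3% each, with a median level of 0.01 that equals the median of all coding genes.

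The lost brakes were Cdkn2a, Cdkn2b, Mtap and Cdkn2c on chromosome 4, Rb1, Bap1 and Lats2 on chromosome 14, Apc on chromosome 18 and Rbl2 on chromosome 8. Gained and lost are said of the segment here, and single bins can differ from it. The bins of Rb1, Bap1 and Lats2 lay at -0.17, 0.22 and -0.10, none of them 0.25 below the median bin. Rb1 encodes the retinoblastoma protein, the target of the cyclin D kinases, and its segment had a level of -0.38 ± 0.016. Rbl2, a relative of Rb1, lay in the interior low segment of chromosome 8 (-0.60 ± 0.076), and Apc, a brake of Wnt signalling, on the low chromosome 18. At bin resolution Cdkn2a and Cdkn2b counted with the segment of 44 to 89.5 Mb, and the 5-kb edges placed them in the empty stretch. They were the only members of any list inside it.

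The gained brakes included Trp53, Nf1, Nf2 and Brca1 on chromosome 11, Cdkn1a and Tsc2 on chromosome 17 and Stk11 and Lats1 on chromosome 10. Trp53 encodes the p53 protein, and Cdkn1a, a kinase inhibitor gene, is among its best known targets. Trp53 lay in a segment at 0.34 ± 0.0084 and Cdkn1a at 0.27 ± 0.0097.

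Of 29 placed growth drivers 8 lay in gained segments (27.6%) and 5 in lost segments (17.2%), close to the shares of all coding genes. The gained drivers were Myc on chromosome 15 (0.31 ± 0.0098), Egfr and Erbb2, receptor kinases, on chromosome 11, Cdk4, Mdm2 and Hmga2 on the distal part of chromosome 10 (0.36 ± 0.016), Mdm4 on chromosome 1 and Ccnd3 on chromosome 17. The lost drivers were Mycn on chromosome 12 (-0.71 ± 0.048), Mycl and Jun on chromosome 4, Akt1 on chromosome 12 and Pdgfrb, a growth factor receptor of fibroblasts, on chromosome 18. Myc and its relatives Mycn and Mycl thus lay on opposite sides of the median bin. Of the drivers only Hras, a GTPase gene on chromosome 7, lay in a focal high bin (0.79 ± 0.13 above its neighbours), and Cdk6 lay in a low bin that belonged to no segment.

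Of 16 genes of the TGFB pathway 6 lay in lost segments (37.5%) and 2 in gained segments (12.5%), beside 20.5% and 28.6% of all coding genes. Of the ligands Tgfb3 was lost (-0.62 ± 0.012, chromosome 12), while Tgfb1 and Tgfb2 lay in segments that were neither. Among the receptors Tgfbr1, at 47.4 Mb of chromosome 4, lay in the middle piece of that chromosome (-0.53 ± 0.022), and Tgfbr2 on chromosome 9 at -0.06 ± 0.0047. Smad2, which carries the signal, Smad4, the shared partner, and Smad7, an inhibitor, lay together on chromosome 18 (-0.50 ± 0.011), whereas Smad3 and Smad6 lay on chromosome 9. Ski, a repressor of the pathway, lay in the distal segment of chromosome 4 at -1.03 ± 0.039, and the gained members were Bmpr2 and Ltbp1.

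Fibroblast genes were gained in 5 of 14 cases (35.7%), namely Col1a1 on chromosome 11, Col3a1 and Fn1 on chromosome 1, Acta2 on chromosome 19 and Ccn2 on chromosome 10, and lost in 1 case, Lox on chromosome 18. Of all coding genes 28.6% lay in gained and 20.5% in lost segments. Of 10 genes of the study 7 (70%) lay in gained segments and 0 in lost segments. They were Ncl and Ptma on chromosome 1, Hdac7 and Ep300 on chromosome 15, Lzts2 and Hif1an on chromosome 19 and Hmga2 on chromosome 10. The 3 genes of miR-9, Mir9-1, Mir9-2 and Mir9-3, lay in segments that were neither, at -0.06, -0.04 and 0.01. Of 12 large genes that replicate late 2 lay in gained segments and 2, Fhit and Immp2l, in lost segments. These shares of 16.7% each stand beside 28.6% and 20.5% of all coding genes, and with 12 genes they are a description only.

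Levels were lastly compared between the libraries, without a test because each condition had 1 library. A difference from Control of at least 0.3 was found in 27 bins of TGFB1 (0.568%), 62 of TGFB1+miR-9-LOF (1.30%) and 196 of miR-9-LOF (4.12%). The differences had unlike spreads over the bins, with a robust SD (from the median absolute deviation) of 0.074, 0.112 and 0.145. A fixed threshold is passed by more bins where the spread is wider, so these counts do not rank the conditions. In the bins of TGFB1 that differed, the median number of ends was 137 over the 4 libraries and the median share of unique sites 9.44%, so these were mostly bins with few ends. In miR-9-LOF 95 bins were higher and 101 lower, with a median of 12914.5 ends against 16774.5 in all bins.

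The longest series of differing bins, 8 bins in miR-9-LOF, was made of the bins of the empty stretch, where ends were few, and the bin on their left. That bin holds the left edge of the stretch, and its ends were not few. Without bins of few unique sites the counts were 3, 43 and 124. Of these, 1 was higher and 2 lower in TGFB1, 10 higher and 33 lower in TGFB1+miR-9-LOF, and 37 higher and 87 lower in miR-9-LOF. Among the 41 segments of at least 10 bins, the largest difference from Control was 0.11 for TGFB1 and 0.18 for TGFB1+miR-9-LOF, both on chromosome 8 from 87.5 Mb, and 0.16 for miR-9-LOF, on chromosome 14 from 86 Mb. Because a step was kept only where every library showed it, the segmentation itself cannot show steps that differ between conditions.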

How the data were processed

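H3K4me3 HiChIP-seq was analysed in 4 libraries of MLg cells. The authors made the lists with HiC-Pro (version not given in the sources used here) at its defaults, on mm10 and with MboI as the enzyme, and without duplicates. The deposited lists give the position, strand and fragment of both ends of each pair, 1 line per pair, and these pairs were the counts. A mapping quality score per end was deposited as well. Ends below a score of 30 were dropped from the counts in bins and from the search for edges. The ratios of pairs to expected pairs used pairs of any score, unless stated. No other column of per-sample values was present.

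Ends were counted in 500-kb bins of the 19 autosomes of GRCm38, with coding genes from GENCODE vM21, and divided by the known bases farther than 5 kb from a coding TSS. The log2 of this density was fitted on GC content and MboI sites per kb by Huber regression on natural splines of 4 degrees of freedom, and the residuals were centred on the median bin. A pseudocount of 0.5 end was added. Each autosome was divided by optimal partition of the mean of the libraries into segments of at least 3 bins, and the weakest step was removed until each step was at least 0.3 in every library. A site was called unique if its 50-base sequence occurred at 1 place in the genome. Shares of unique sites in bins, runs and segments count each side of a site on its own. Shares within the stretches bounded by edges count sites that are unique on both sides. Contacts were counted in 25-kb units, and expected pairs came from 15 distance classes per 10-fold and the coverage of both units. Edges were the best split of the counts in 5-kb or 10-kb classes. Python 3.11.15, numpy 2.4.6, pandas 2.3.3, scipy 1.17.1, statsmodels 0.14.6, patsy 1.0.2 and matplotlib 3.10.9 were used, and the procedures were tested on simulated data.

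The members and gene lists were chosen with earlier results of these data known. Genes named are those that overlap a focal run, all of them where a run holds 10 or fewer and otherwise the count and families, and the members of the lists. Promoters beside the edges of the described stretches, the windows of contacts and the limit of 70% for unique sites were chosen after seeing the data. No p-value was computed, because each condition had 1 library. The alternatives were other bin sizes, mapping quality, TSS distances, corrections, kinds of pairs, step and focal thresholds, flank widths, and leaving out each library. Chromosomes X and Y were not analysed here. Some members of the gene lists are not reported here.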

Additional observations from a re-analysis of the deposited data

How the results depend on the processing

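Bins of 250 kb gave 84 steps, 153 focal low bins and 139 focal high bins, and bins of 1 Mb gave 22, 37 and 22. Without correction for GC content and MboI sites there were 156 steps and 192 focal high bins, and 9 of 41 segment levels changed sign, of which 2 were at least 0.25 from 0, chromosome 4 from 3.5 to 44 Mb to -0.039 and chromosome 8 from 121 to 129 Mb to 0.18. With pairs between chromosomes only 7 levels changed sign, none of them at least 0.25 from 0. Focal high bins numbered 110 with pairs under 20 kb apart only, 99 with pairs between chromosomes only, and 14 at the stricter thresholds of 1.5 and 1. With bins of at least 70% unique sites, chosen after seeing the data, there were 27 steps, 10 focal low bins and 19 focal high bins. The cause of these changes was not tested beyond the number of bins that each setting tests. Over these segments, which have at least 10 bins, 504 of 533 values under 13 alternatives kept their sign, and 344 moved by less than 1 SD over the libraries.

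Leaving out 1 library at a time gave 48 to 57 steps, 27.2% to 29.95% of bins gained, 25.5% to 26.3% lost, 82 to 89 focal low bins and 64 to 88 focal high bins. Bins that differed from Control in any library numbered 233, and 910 at a threshold of 0.2, 720 without correction, 71 with 1-Mb bins and 150 with unique bins. The median flank contact ratio was 2.36 with 500 kb on each side, 3.93 with both ends at mapping quality 30 or more and 3.18 for runs with at least 70% unique sites. No paired analysis was possible because each condition had 1 library.

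Levels are relative to the median bin, so the number of copies was not measured, and precipitation of H3K4me3 enriches active regions beyond the TSS windows left out. Low bins with few unique sites cannot be told apart from missing sequence. Edges were read in classes of 5 or 10 kb, and some differed by more between libraries. The line was not compared with MLg cells of another source or with normal mouse DNA.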
